A study of Mus musculus with 5 samples.

Results

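The mouse genes Alas2, Slc4a1, Slc25a37, Kel, Hemgn, Trim10, Car2, Mgst3 and Acp5 were followed cell by cell in the blood of mid-gestation embryos. They are 9 of the 24411 genes in the deposited table and were chosen from the readings of these same cells, as genes high in the cells rich in haemoglobin transcript. Their height in those cells is therefore given as a description, with no test. The group was named for haem synthesis and the red cell membrane, but only Alas2 and Slc25a37 serve haem synthesis and only Slc4a1 and Kel encode red cell membrane proteins. The other 5 encode a nuclear protein, a TRIM-family protein and 3 enzymes. The cells came from wild-type C57BL/6 embryos at embryonic day 9.5 (E9.5, 2 batches) and embryonic day 10 (E10, 3 batches), with no treatment or transgene named. Blood was drawn from the heart, and cells lacking TER119, CD41, CD43 and CD45 at the surface were sorted, which removes most erythroid, megakaryocytic and other blood cells by design. Single cells were then chosen by hand with a mouth pipette, and their messenger RNA was counted with modified STRT-seq, where every copied molecule carries a unique molecular identifier (UMI). The labels call the sorted cells non-haematopoietic and do not say whether the batches came from separate litters. Each p-value below therefore measures only the spread between these batches, which may be technical.

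Haem is the iron-holding group of haemoglobin. In red cell precursors its synthesis begins in mitochondria with the enzyme ALAS2, uses iron brought in by mitoferrin 1 (Slc25a37), and ends with the insertion of iron by ferrochelatase. The red cell membrane carries the chloride and bicarbonate exchanger band 3 (Slc4a1), the most abundant protein of that membrane, and the Kell blood group protein (Kel), a zinc endopeptidase. Carbonic anhydrase 2 (Car2) interconverts carbon dioxide and bicarbonate, Hemgn encodes the nuclear protein hemogen, and Trim10 a TRIM-family protein known from terminal erythroid differentiation. Mgst3 encodes a microsomal glutathione transferase, and Acp5 the tartrate-resistant acid phosphatase best known from osteoclasts and macrophages. At these stages most circulating red cells are primitive erythroid cells from the yolk sac, which mature while they circulate.

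The table held 96 wells for each of the 5 batches, 480 in all. Of these, 111 held 0 UMIs and 75 held UMIs but fell below 1000 genes or 30000 UMIs, which left 294 cells with 31294 to 1407021 UMIs (median 308924). The 5 batches kept 26 and 46 cells at E9.5 and 87, 72 and 63 at E10. Levels are given as counts per 1000000 UMIs of the same cell (CPM) and are not compared between genes. A cell was called globin-high where haemoglobin genes held at least 10% of its UMIs. This limit used no member of the group, and it cuts a range and does not define a cell type. The highest cell below it stood at 9.15%, the lowest above it at 10.1%, and 8 cells lay between 8% and 12%. By this limit 48 cells were globin-high, 1 and 9 in the E9.5 batches and 1, 26 and 11 in the E10 batches, and 246 were other cells. Median depth was 250664 UMIs in globin-high against 133596 in other cells of E9.5 replicate 2, 354394.5 against 279742 in E10 replicate 2, and 445741 against 243778.5 in E10 replicate 3. The globin-high cells had a median of 123 CPM of Gata1 and 341 CPM of Klf1, both master regulators of red cell genes, against 0 and 2.51 CPM in the other cells. These medians pool the batches. In E10 replicate 2 alone they were 122 and 305 CPM against 34.1 and 52.9 CPM in the other cells. The summed mesenchyme markers of all globin-high cells had a median of 90.2 CPM against 1112 CPM in all other cells. In E10 replicate 2 alone these medians were 119 against 266 CPM. No kept cell held a UMI of the CD45 gene Ptprc.

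Promoters are shown for 4 of the members, 1 haem synthesis, 1 membrane, 1 TRIM-family and 1 nuclear protein gene, so that the letters of the motifs bound by the red cell factors GATA1 and KLF1 can be read. The set of promoters at RefSeq starts used here, on build GRCm38.p6, holds 6 of the 9 members, with 8 starts in all because Acp5 has 3. Each run is the 250 bases before the RefSeq start, read on the gene's own strand, 5′ to 3′. Capitals mark GATA or its reverse complement TATC, and CACCC or its reverse complement GGGTG. The Alas2 window is chrX:150547167-150547416 on the plus strand, the Kel window chr6:41704326-41704575 on the minus strand, the Trim10 window chr17:36869324-36869573 on the plus strand and the Hemgn window chr4:46404184-46404433 on the minus strand.
Alas2: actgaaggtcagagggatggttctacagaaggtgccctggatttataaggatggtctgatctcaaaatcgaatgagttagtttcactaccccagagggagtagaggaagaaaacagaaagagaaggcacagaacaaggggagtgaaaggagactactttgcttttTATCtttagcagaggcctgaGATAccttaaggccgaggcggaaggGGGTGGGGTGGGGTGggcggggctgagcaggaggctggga
Kel: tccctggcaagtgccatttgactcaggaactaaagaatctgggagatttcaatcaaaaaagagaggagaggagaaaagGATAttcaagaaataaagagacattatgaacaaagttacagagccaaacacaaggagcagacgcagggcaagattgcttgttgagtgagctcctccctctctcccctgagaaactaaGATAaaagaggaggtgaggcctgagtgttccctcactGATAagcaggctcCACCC
Trim10: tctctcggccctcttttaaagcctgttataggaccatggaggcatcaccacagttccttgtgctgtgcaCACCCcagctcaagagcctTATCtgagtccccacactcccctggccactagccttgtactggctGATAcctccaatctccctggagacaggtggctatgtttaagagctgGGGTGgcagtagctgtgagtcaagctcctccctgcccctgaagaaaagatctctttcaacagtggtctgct
Hemgn: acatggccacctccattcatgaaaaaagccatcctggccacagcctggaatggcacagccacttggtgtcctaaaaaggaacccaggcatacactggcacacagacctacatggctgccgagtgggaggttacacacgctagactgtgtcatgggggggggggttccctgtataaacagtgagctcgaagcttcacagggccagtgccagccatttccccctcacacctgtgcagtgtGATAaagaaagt
The short motif GATA, on either strand, was in 7 of the members' 8 promoters, against 53.6% of 32851 promoters of the same length. All 6 members with a sequence had it in at least 1 promoter. The longer AGATAA (reverse complement TTATCT, overlapping GATA) was in 4 of the 8, 1 each of Alas2, Kel, Trim10 and Acp5, against 9.99% of all promoters. CACCC was in 6 of the 8, those of the same 4 members, against 52.0% of all. In the Kel window, GATA began 172, 55 and 18 bases before the start, and in the Hemgn window 12 bases before it. A match is a description of the letters and not of binding, which was not measured. Slc4a1, Slc25a37 and Car2 had no entry in the set of promoters used here and are named only.

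The haem synthesis members Alas2 and Slc25a37 were high in every globin-high cell. In E9.5 replicate 2 the 9 globin-high cells ranged from 1098 to 2143 CPM of Alas2 (median 1303), the 26 of E10 replicate 2 from 239.9 to 1452 CPM (median 939.7) and the 11 of E10 replicate 3 from 799 to 1302 CPM (median 1130.2). The lone globin-high cells of E9.5 replicate 1 and E10 replicate 1 held 1347 and 1106 CPM. Alas2, whose enzyme sets the rate of haem synthesis in red cell precursors, thus reached below 799 CPM in globin-high cells of E10 replicate 2 alone. In the other cells its medians were 11.2 and 26.0 CPM at E9.5 and 0, 123 and 13.9 CPM at E10. Slc25a37 ranged from 315 to 2723 CPM (median 1213) in the globin-high cells of E9.5 replicate 2, from 357 to 1692 CPM (median 1099) in E10 replicate 2 and from 635 to 2128 CPM (median 1171) in E10 replicate 3, with 580.0 and 1447 CPM in the 2 lone cells. Its medians in the other cells were 25.9, 55.2, 6.30, 204 and 28.7 CPM, in the order of the batches from E9.5 replicate 1 to E10 replicate 3. Both genes were thus high in globin-high cells of every batch and highest among other cells in E10 replicate 2.

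The membrane genes showed the same order of classes. Slc4a1 ranged from 369 to 2013 CPM (median 617) in the globin-high cells of E9.5 replicate 2, from 153 to 1331 CPM (median 686) in E10 replicate 2 and from 309 to 1532 CPM (median 605) in E10 replicate 3. The lone cells held 698 and 763 CPM, and the other cells had medians of 7.34, 13.3, 0, 104 and 6.76 CPM in batch order. Kel, the peptidase of the Kell blood group, ranged from 129.6 to 559.6 CPM (median 251), from 43.6 to 466 CPM (median 209) and from 98.7 to 281 CPM (median 166) in the same 3 batches. The lone cells stood below these 3 medians, at 87.6 and 41.7 CPM of Kel. Its medians in the other cells were 0, 5.72, 0, 44.1 and 4.34 CPM.

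Hemgn and Trim10 also had their higher medians in globin-high cells, Trim10 with the wider spread of the pair. Hemgn ranged from 234 to 986 CPM (median 583) in the globin-high cells of E9.5 replicate 2, from 89.2 to 1695 CPM (median 715) in E10 replicate 2 and from 384 to 1039.7 CPM (median 527) in E10 replicate 3. The lone globin-high cell of E10 replicate 1 held 184 CPM of Hemgn, against 866 CPM in that of E9.5 replicate 1. Trim10 ranged from 13.0 to 417 CPM (median 137), from 0 to 329 CPM (median 83.2) and from 76.6 to 356 CPM (median 272) in the same 3 batches, with 159 and 234 CPM in the lone cells. Its coefficient of variation, the SD over the mean, was 72.4%, 83.5% and 49.3% among the globin-high cells of these batches, against 15.7%, 17.0% and 9.29% that counting alone gives at the mean count. In the other cells Trim10 had a median of 0 CPM in 4 batches and 8.10 CPM in E10 replicate 2, and Hemgn had medians of 6.15, 9.15, 0, 64.0 and 7.17 CPM in batch order.

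Among the enzyme genes, Car2 ranged from 1543 to 4113 CPM (median 2541) in the globin-high cells of E9.5 replicate 2, from 284 to 3138 CPM (median 1805) in E10 replicate 2 and from 1743 to 3607 CPM (median 2577) in E10 replicate 3. Mgst3 ranged from 1512 to 2409 CPM (median 1784), from 49.3 to 1542 CPM (median 769) and from 1048 to 2151 CPM (median 1499) in these batches. Acp5 ranged from 337 to 858 CPM (median 614), from 65.4 to 629 CPM (median 341) and from 254 to 591 CPM (median 436). For all 3 enzyme genes the globin-high cells of E10 replicate 2 had the lowest of the 3 medians, and the highest Mgst3 cell there, at 1542 CPM, only just passed the lowest cell of E9.5 replicate 2. In the lone cells of E9.5 replicate 1 and E10 replicate 1, Car2 held 2988 and 1657 CPM, Mgst3 2332 and 875 CPM, and Acp5 722 and 237 CPM. Medians in the other cells, in batch order, were 31.9, 62.1, 0, 202 and 42.5 CPM of Car2 and 5.09, 10.7, 0, 56.3 and 6.48 CPM of Acp5. Acp5 is a marker of osteoclasts and macrophages, so their other markers were read in the same cells. Over the 48 globin-high cells the summed level of 6 osteoclast markers ranged from 0 to 6.86 CPM (median 0), with Oscar, Atp6v0d2, Calcr and Ocstamp at 0 UMIs. The summed level of 11 macrophage markers ranged from 0 to 68.2 CPM (median 2.81), and 9 of them, among them C1qa, Adgre1 and Lyz2, were at 0 UMIs. In the 246 other cells the osteoclast sum ranged from 0 to 268 CPM and the macrophage sum from 0 to 321 CPM (both medians 0). Atp6v0d2, Ocstamp, C1qa, Adgre1 and Lyz2 were at 0 UMIs there too, so these genes do not set the classes apart.

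**Figure D1:**
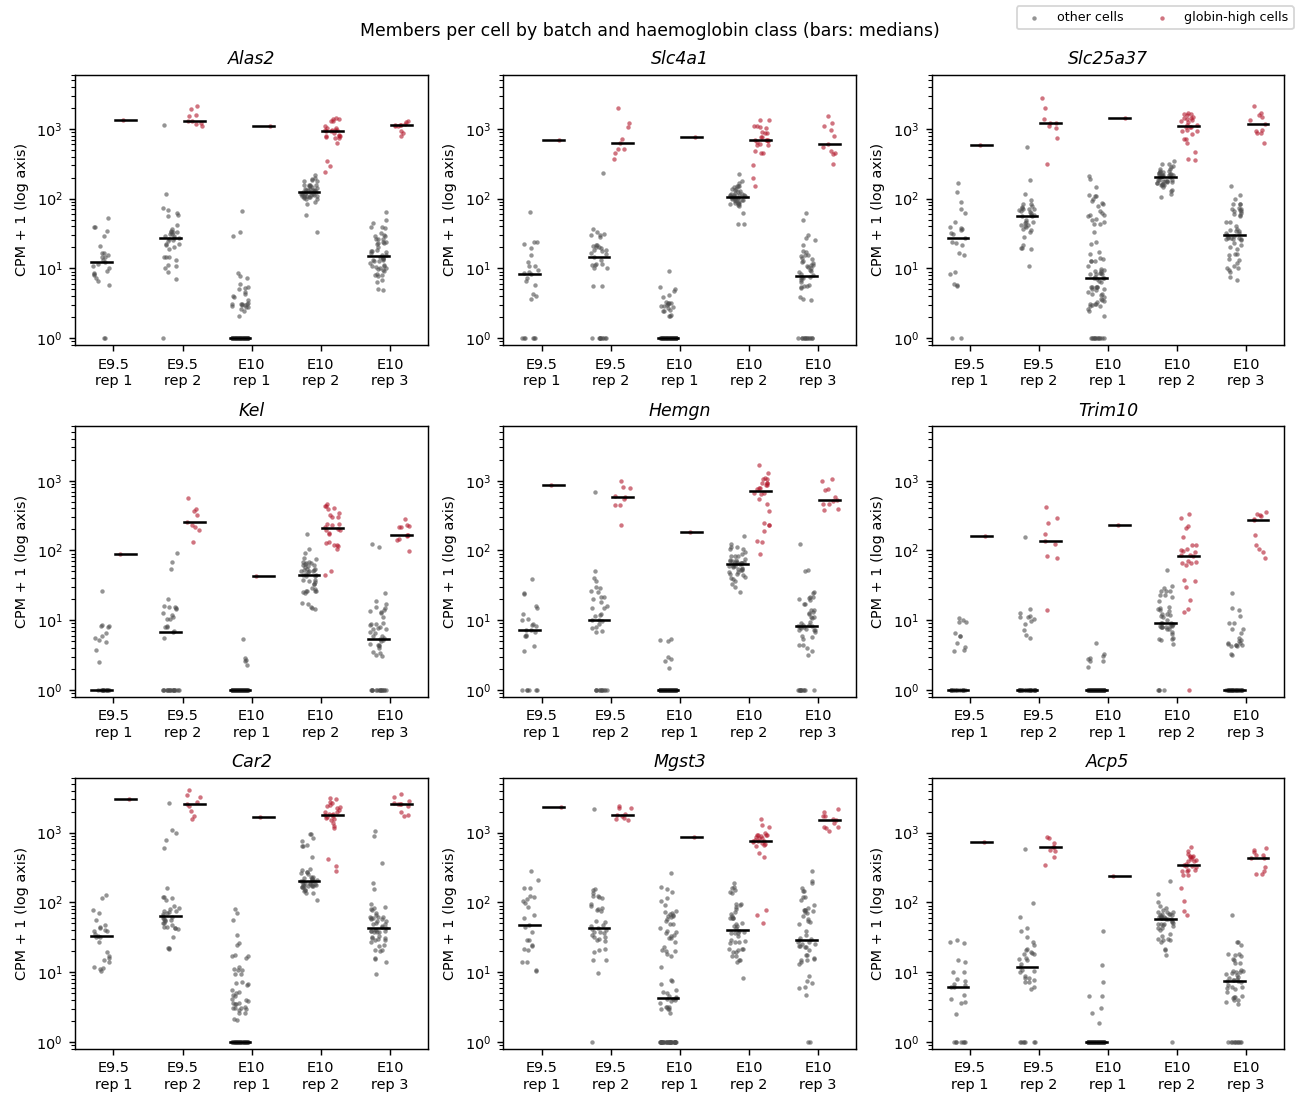
Level of each member in every kept cell (points, CPM with 1 added, log axis) by batch, for globin-high cells in red and other cells in grey, with bars at the medians. The globin-high median stands above the other cells' median in every batch, and that of the other cells is highest in E10 replicate 2 for 8 of the 9 members.

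Summed over cells, each member was higher in globin-high than in other cells in 3 of the 3 batches with at least 5 cells of both classes. The log2 fold change ranged from 3.92 for Car2 to 5.46 for Slc4a1, where 21.2% of 11328 genes passed the test in either direction and 10.7% were higher. Since the members were chosen on this contrast, nothing is read from that. Alas2 averaged 1192 ± 269 CPM (SD, n = 3 batches) in globin-high sums and 83.3 ± 58.9 CPM in sums of other cells. These fold changes use TMM scaling, which assumes that most genes do not change and sets the median gene at -0.15. Scaled to the total of each sum, haemoglobin UMIs included, the median gene stood at -0.99 and the members at 3.09 for Car2 to 4.63 for Slc4a1.

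Whether single cells of the 2 classes overlapped depended on the batch. The share of all genes without overlap was not counted, and the members were chosen as high in such cells. The counts of members that follow are therefore a description, and nothing particular to the members is read from them. In E10 replicate 3, 8 of 9 members had every globin-high cell above every other cell, and Kel did not, because 2 progenitor-like cells stood at 112 and 120.9 CPM. In E9.5 replicate 2 this held only for Slc4a1 and Kel, and for the other 7 members overlap involved a single other cell, or 2 for Trim10. In E10 replicate 2 it held only for Alas2 and Slc25a37, where the lowest globin-high cell stood at 239.9 CPM of Alas2 and the highest other cell at 219 CPM. Members were found together in the same globin-high cells. With every cell thinned to 30000 UMIs, 41 of the 48 globin-high cells held at least 1 UMI of all 9 members (median 9, lowest 6). Among the 246 other cells the median was 3 members, 9 cells held all 9 and 40 held none. At a level of at least 100 CPM, globin-high cells held a median of 8 members and never fewer than 5, while 8 other cells held 5 or more.

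Other cells carried members at levels that went with the haemoglobin share of their batch. Haemoglobin genes took a median of 0.66%, 1.5%, 0.0335%, 5.13% and 0.877% of the UMIs of other cells in batch order, and the batch with the highest share, E10 replicate 2, also had the highest medians for 8 of the 9 members. The exception was Mgst3, with 45.8, 41.8, 3.33, 39.7 and 28.2 CPM. For Alas2, Slc25a37, Hemgn, Car2 and Acp5 the 5 medians stood in the order of the haemoglobin share. At 30000 UMIs, an Alas2 UMI was found in 45 of 46 other cells of E10 replicate 2 (97.8%) and in 4 of 86 of E10 replicate 1 (4.65%). Without thinning these shares were 100% and 32.6%. Neural or neural crest-like cells, a type that should lack Alas2, gave 4 of 4 cells in E10 replicate 2, 11 of 19 in E10 replicate 3 (57.9%) and 3 of 7 in E9.5 replicate 2 (42.9%) at that depth. The same type gave 1 of 3 cells in E9.5 replicate 1 (33.3%) and 0 of 9 in E10 replicate 1. Shares of other cells near these were not taken as evidence of expression. Whether red cell RNA in the fluid, or red cell material attached to other cells, gave these counts was not tested.

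**Figure D2:**
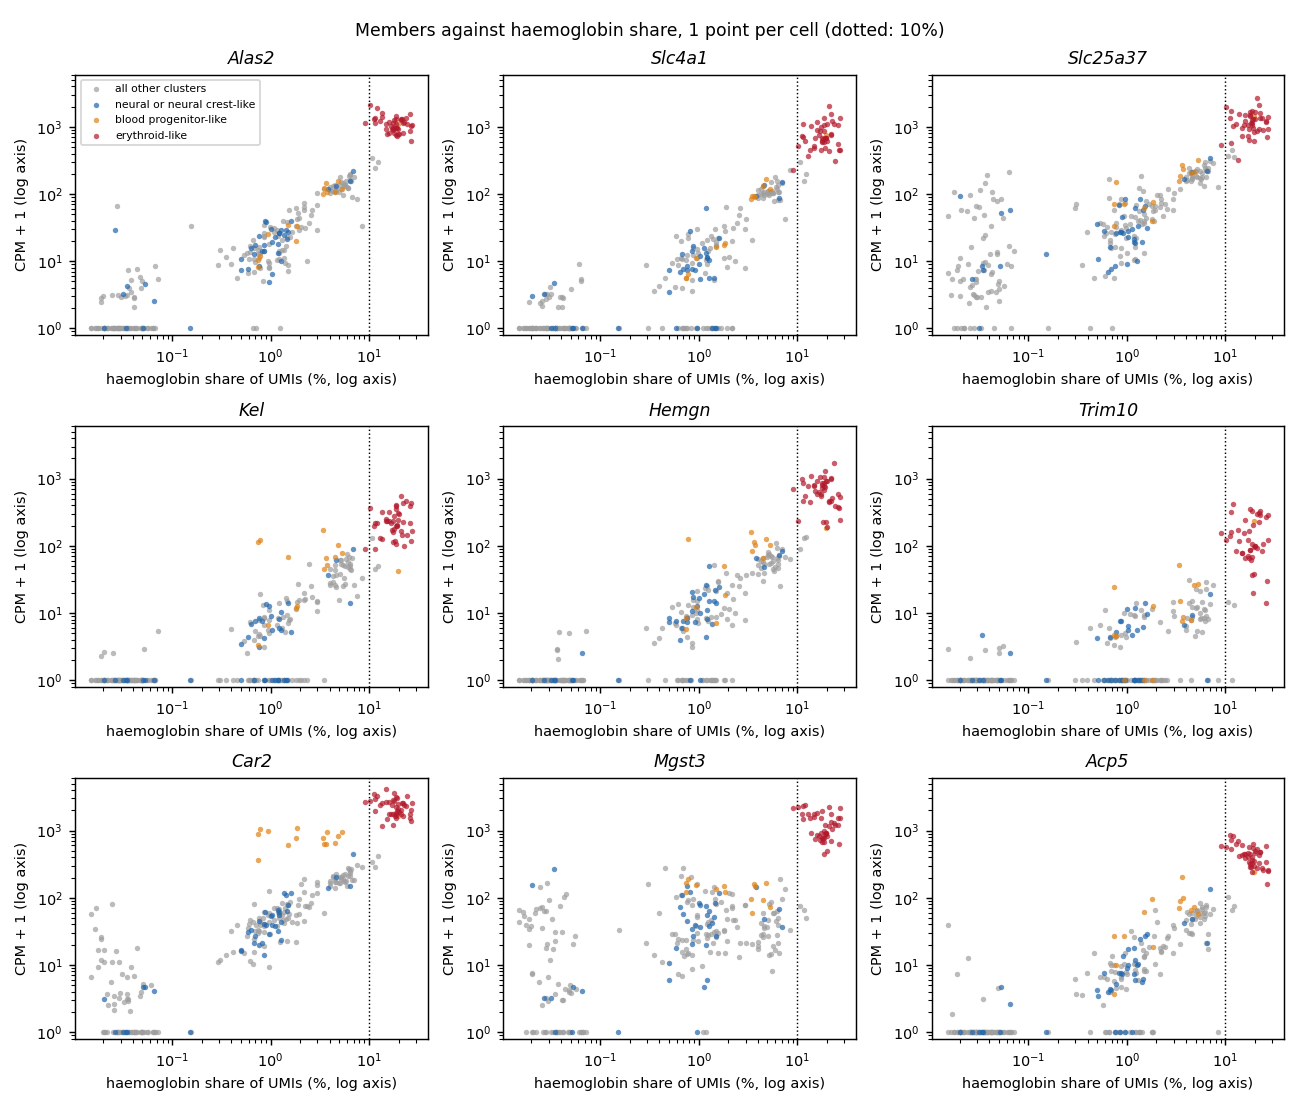
Level of each member (CPM with 1 added, log axis) against the share of UMIs from haemoglobin genes (percent, log axis), 1 point per kept cell, coloured by cluster type, with a dotted line at 10%. Below the line Alas2 climbs with the share, from a median of 11.7 CPM at 0.1% to 1% to 125 CPM at 3% to 10%, while Mgst3 goes from 32.0 to 42.8 CPM, and progenitor-like cells stand high for Car2.

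The members did not keep 1 ratio to haemoglobin across the classes. In E10 replicate 2 the globin-high cells held 54.6 Alas2 UMIs per 10000 haemoglobin UMIs, and the other cells outside the blood clusters held 25.8. The ratio in these other cells, relative to that in globin-high cells of the same batch, ranged from 0.191 for Mgst3 to 0.614 for Kel over the 9 members. In E10 replicate 3 it ranged from 0.206 for Trim10 to 0.63 for Mgst3, and in E9.5 replicate 2 from 0.150 for Acp5 to 0.354 for Slc25a37. With the blood clusters left out, all 9 members thus stood lower against haemoglobin in other cells than in globin-high cells of these 3 batches. With them included, Car2 stood higher in other cells of E9.5 replicate 2 (233 against 205 per 10000) and of E10 replicate 3 (140.1 against 132), as did Kel in E10 replicate 3 (18.3 against 10.2). The members were chosen as high in cells rich in haemoglobin transcript, which can favour a lower ratio in other cells. The share of all genes with a lower ratio was not counted. In E10 replicate 1, whose other cells had only 14414 haemoglobin UMIs, the ratio was above that of its 1 globin-high cell for 6 members, most for Mgst3 (889 against 44.5 per 10000), Slc25a37 (699 against 73.5) and Car2 (273 against 84.2). In E9.5 replicate 1, with 1 globin-high cell too, Slc25a37 stood at 1.02 times and the other 8 members lower.

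Slc25a37, Mgst3 and Car2 were found in cells with hardly any haemoglobin transcript. In the 84 cells below 0.1% haemoglobin, the highest level was 66.1 CPM of Alas2, 8.12 CPM of Slc4a1, 211 CPM of Slc25a37 and 263 CPM of Mgst3. The 22 pluripotent or germ cell-like cells of E10 replicate 1 had a median of 10.4 CPM of Car2 (highest 80.3 CPM) and 31.1 CPM of Mgst3, and Alas2 there had a median of 0 and a highest level of 6.67 CPM. In the 30 mesenchyme-like cells of the same batch the medians were 0 CPM of Car2, 1.96 CPM of Mgst3 and 4.94 CPM of Slc25a37, whose highest cell held 211 CPM. The mitoferrin and glutathione transferase genes were thus found in single cells of these clusters while Slc4a1 stayed near 0.

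Car2 was also high in blood progenitor-like cells, a cluster of 15 cells. It was named from 5 of 9 listed progenitor markers, Kit, Myb, Gfi1b, Spn and Runx1. The others, Cd34, Ptprc, Itga2b and Gata2, did not meet the limits for a marker. The cluster's 4 cells in E9.5 replicate 2 held 598 to 1082 CPM of Car2 (median 882). The 7 in E10 replicate 2 held 632 to 959 CPM (median 765) and the 3 in E10 replicate 3 held 364 to 1045 CPM (median 887). Cells outside the blood and neural clusters had medians of 58.3, 188 and 47.9 CPM in these batches, and no progenitor-like cell overlapped them. The progenitor-like cells were not set apart by Alas2, whose medians were 28.1, 116 and 9.39 CPM against 26.2, 124 and 13.8 CPM. Slc4a1 likewise had medians of 15.8, 93.8 and 4.69 CPM against 17.5, 104 and 7.68 CPM. Carbonic anhydrase 2 was thus present in progenitor-like cells of 3 batches while the first haem synthesis gene and band 3 stood near the level of the surrounding cells. Some of these cells also carried red cell regulators. Those below the haemoglobin limit with 5 or more members at 100 CPM held 169 to 271 CPM of Gata1 and 228 to 451 CPM of Klf1. The medians of all globin-high cells were 123 and 341 CPM. Mgst3 lay between, with medians of 142, 94.9 and 162 CPM against 35.5, 31.9 and 23.6 CPM, and Kel reached 112 CPM in the median of the 3 cells of E10 replicate 3 against 4.34 CPM. Car2 and the other members took no part in forming the clusters, but their levels can vary with the genes that did, so these differences are described and were not tested.

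**Figure D3:**
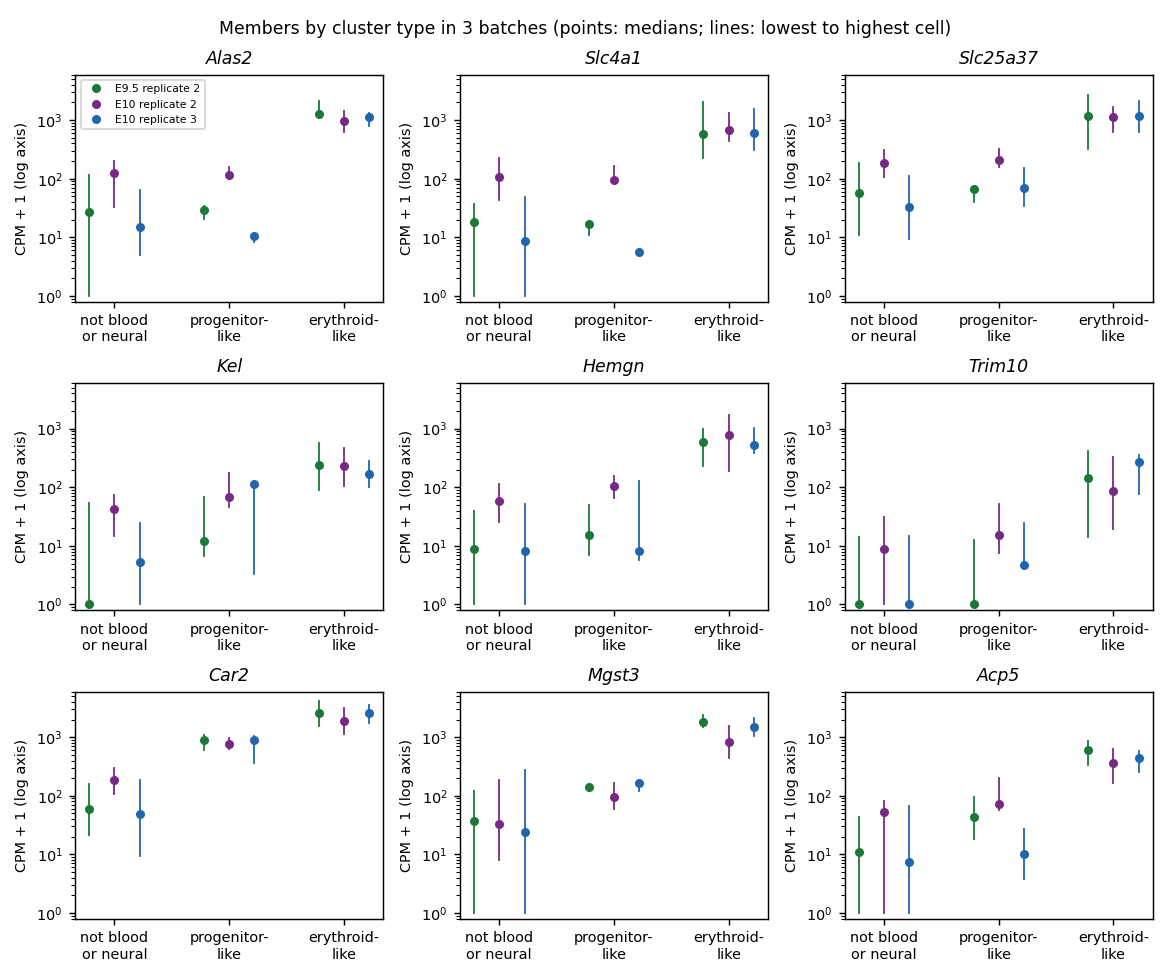
Median (points) and lowest to highest cell (lines) of each member in CPM with 1 added (log axis), for cells outside the blood and neural clusters, blood progenitor-like cells and erythroid-like cells of 3 batches. In progenitor-like cells Car2 stands at medians of 765 to 887 CPM, between the other 2 types, and Alas2 and Slc4a1 stand at the level of the first type.

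A few cells stood apart from their class. In E10 replicate 2, 3 globin-high cells of 45844 to 145750 UMIs and 10.7% to 12.2% haemoglobin fell in an unnamed cluster led by Car12 and Col4a1. They held 239.9 to 343 CPM of Alas2, 49.3 to 75.5 CPM of Mgst3 and 0 to 13.7 CPM of Trim10, where the 23 erythroid-like cells of that batch began at 616, 447 and 18.7 CPM. The lone globin-high cell of E10 replicate 1 fell in the progenitor-like cluster at 19.7% haemoglobin, with 1657 CPM of Car2 but 0 CPM of Gata1 and 1.44 CPM of Kit. Its summed pluripotent or germ cell markers stood at 2823 CPM, the highest of the globin-high cells, against a median of 0 over the 48, and whether more than 1 cell entered that well was not tested. In E9.5 replicate 2 an erythroid-like cell lay just under the limit, at 9.15% haemoglobin, with 1134 CPM of Alas2 and 2160 CPM of Mgst3. It overlapped the globin-high cells of that batch for 7 members, and for Trim10 a second other cell did so too. The further 7 other cells with 5 or more members at 100 CPM were 5 progenitor-like cells, 1 neural or neural crest-like cell and 1 cell of the Car12-led cluster.

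Across cells the members varied together, and the strength of this depended on which cells were taken. Over all 294 kept cells, Pearson's r of log2(CPM + 10) ranged from 0.74 to 0.95 over the 36 pairs of members (median 0.89), the highest for Alas2 with Slc4a1. These values include the gap between the classes and the differences between batches. Among the 246 other cells with batch means removed, the median r was 0.29. Among the 46 globin-high cells of 3 batches with batch means removed it was 0.57, from 0.34 for Kel with Hemgn to 0.80 for Car2 with Mgst3. By batch, the median was 0.72 in the 26 globin-high cells of E10 replicate 2, where the lowest pair stood at 0.46, and 0.11 and 0.13 in the 9 and 11 cells of E9.5 replicate 2 and E10 replicate 3, where the lowest pairs stood at -0.74 and -0.68. The 3 cells of E10 replicate 2 described above were low in most members and are part of that batch's value, and by ranks (Spearman's rho) its median pair stood at 0.44. Cells of a batch share library, depth and composition, so these coefficients are descriptions and carry no p-value. With the haemoglobin share itself, members had r between 0.098 and 0.46 among globin-high cells with batch means removed.

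**Figure D4:**
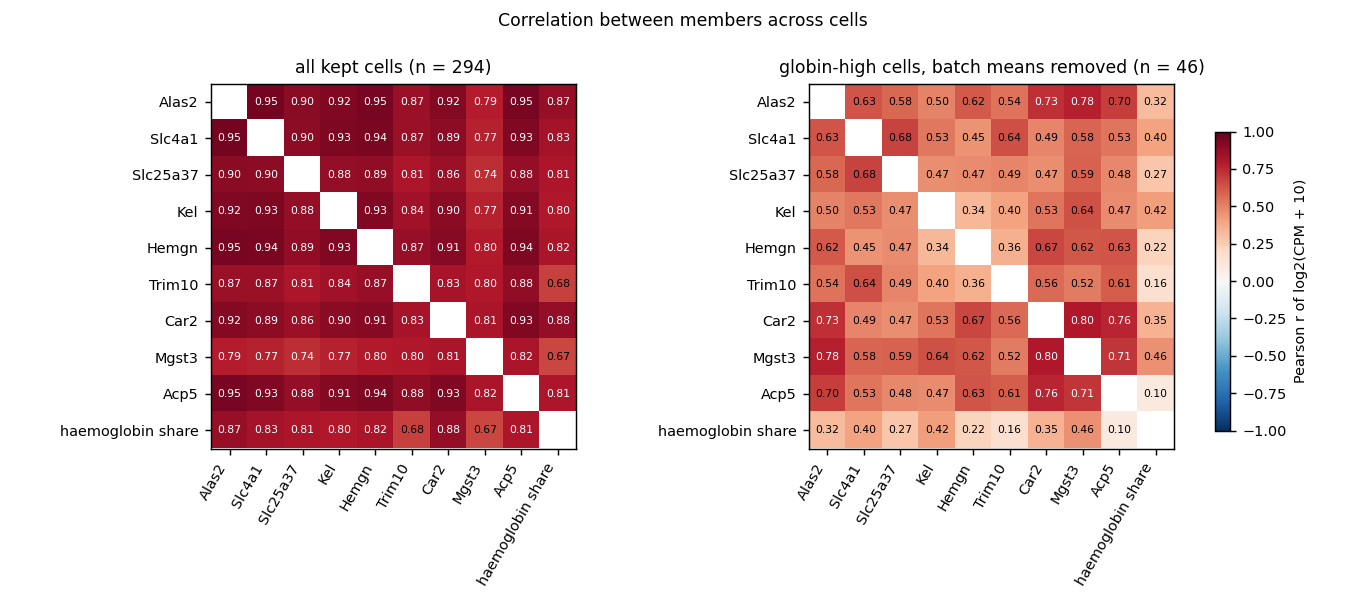
Pearson's r of log2(CPM + 10) between members, and with the haemoglobin share, over all 294 kept cells (left) and over 46 globin-high cells with batch means removed (right), on a colour scale from -1 to 1. The range over pairs of members is 0.74 to 0.95 on the left and 0.34 to 0.80 on the right.

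The genes most like each member were searched among 12738 genes with a UMI in at least 20 kept cells, by the same coefficient over 294 cells. For Trim10 the first was Ncf4, which encodes a subunit of the phagocyte oxidase, at 0.88, and for Mgst3 it was the ferritin heavy chain gene Fth1 at 0.82. The red cell membrane genes Tspan33, Smim1 and Ermap were among the 3 most alike genes of the haem, membrane and nuclear members. Tspan33 stood at 0.88 with Alas2, Slc4a1 and Kel and at 0.90 with Hemgn, and Ermap at 0.91 with Kel and 0.85 with Slc25a37. For Car2 the biliverdin reductase gene Blvrb reached 0.93 and the co-activator gene Cited4 0.92, and Cited4 also reached 0.90 with Acp5.

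The stages were compared on counts summed per batch, E10 minus E9.5, which the choice of members did not use. In all kept cells Alas2 stood at 89.9 and 463 CPM in the E9.5 sums and at 19.3, 434 and 319 CPM in the E10 sums. Mgst3 stood at 197 and 654 CPM, and at 42.6, 332 and 473 CPM. E10 replicate 1 was lowest and E9.5 replicate 1 next lowest for all 9 members, and these 2 batches also had the lowest shares of globin-high cells. The 2 stages thus overlapped for every member. Of 14103 genes, 0 (0%) passed at an adjusted p of 0.05 (quasi-likelihood test of edgeR), 1119 (7.93%) had an unadjusted p under 0.05, and DESeq2 called 84 (0.596%), of which 50 were higher (0.355%) and 34 lower (0.241%) and 0 were members. By DESeq2, 1643 genes (11.7%) had an unadjusted p under 0.05. The members' log2 fold changes ran from -0.69 for Mgst3 to 0.59 for Slc4a1, with standard errors of 0.94 to 1.63 and adjusted p-values by edgeR of 0.859 to 0.987. In these sums the share of globin-high cells and the level per cell both enter. The share of globin-high cells was 3.85% and 19.6% at E9.5 (mean 11.7% ± 11.1, SD, n = 2) and 1.15%, 36.1% and 17.5% at E10 (18.2% ± 17.5, n = 3). The difference of 6.53 points gave p = 0.8 by an exact permutation test (two-sided, smallest possible p 0.1), and it turned to -1.32 points without E9.5 replicate 1 and -2.40 without E10 replicate 2. Exact (Clopper-Pearson) 95% intervals of these shares, which cover counting error only, were 0.0973% to 19.6% and 9.36% to 33.9% at E9.5, and 0.0291% to 6.24%, 25.1% to 48.3% and 9.05% to 29.1% at E10.

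Within globin-high cells the stage could be compared only between E9.5 replicate 2 and 2 E10 batches, so the lone E9.5 sum is assumed to vary as the E10 sums do. Acp5 stood at 649 CPM in the E9.5 sum and at 379 and 438 CPM in the E10 sums. Mgst3 stood at 1891 CPM against 825 and 1516 CPM, and Alas2 at 1498 CPM against 991 and 1087 CPM. Slc4a1, at 714 CPM against 779.7 and 795 CPM, went the other way. Of 10756 genes 30 (0.279%) passed and 834 (7.75%) had an unadjusted p under 0.05, and 0 members passed. The members' log2 fold changes ran from -0.76 for Acp5 to 0.06 for Hemgn, with standard errors of 0.447 to 0.515 and adjusted p-values by edgeR's quasi-likelihood test of 0.772 to 0.993, and their median was -0.43 against 0.21 over all genes tested. The 30 were 16 higher (0.149%) and 14 lower (0.13%), whereas the 5 that DESeq2 called were all lower and held 0 members. Of the genes in the 5 lists below, 0 passed in either stage comparison, and 3 passed within globin-high cells when sums were scaled to their totals (Bpgm higher, Cd59a and Tfrc lower, named after their values were seen).

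Other genes of red cell formation were read from 5 lists in the comparison of globin-high with other cells, over the 3 batches with both classes and with batch as a block. The classes rest on haemoglobin transcript in these same cells, so the p-values describe the classes as formed. Of 27 genes of haem synthesis and iron tested, 22 were higher and 0 lower at an adjusted p of 0.05 by edgeR, with a median log2 fold change of 2.40 against -0.15 over all genes, of which 10.7% were higher and 10.5% lower. Abcb10, a mitochondrial transporter of red cell precursors, stood at 363 ± 55.5 CPM (SD, n = 3 batches) against 52.3 ± 23.1 CPM, a log2 fold change of 3.70 (SE 0.33, adjusted p 1.8e-14 by edgeR). Uros, the uroporphyrinogen synthase gene, rose by 3.70 (SE 0.33) and Fech, the ferrochelatase gene, by 3.39 (SE 0.31). Fth1, the ferritin heavy chain gene, rose by 3.12 (SE 0.38), from 1911 ± 608 to 9117 ± 1455 CPM. Uros and Fech, genes of later enzymes of haem synthesis, were thus higher in the same class of cells. Hmox1, whose enzyme breaks haem down, stood at 2.91 ± 1.44 against 10.5 ± 3.06 CPM and did not pass (log2 fold change -1.03, adjusted p 0.481 by edgeR).

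Of 27 membrane and skeleton genes tested, 21 were higher and 0 lower, with a median of 3.12. Epb42 (protein 4.2, which ties band 3 to the skeleton) rose by 4.72 (SE 0.37), from 12.9 ± 6.69 to 179 ± 59.8 CPM. The skeleton genes Sptb (beta spectrin) and Dmtn (dematin) rose by 4.20 and 4.48. Cd47, made by most cell types, stood at 29.6 ± 9.15 against 76.3 ± 27.5 CPM and did not pass (-0.51, adjusted p 0.304 by edgeR), but was lower when sums were scaled to their totals. Of 17 enzyme and maturation genes tested, 13 were higher and 0 lower, with a median of 2.56. They included the ubiquitin-conjugating enzyme gene Ube2l6 at 4.28 (SE 0.34), Bpgm, whose enzyme makes the bisphosphoglycerate that tunes oxygen release, at 3.49 (SE 0.34), and the red cell pyruvate kinase gene Pklr at 3.34. Rhd is counted in both of these lists.

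The 20 erythroid regulators went both ways, with 9 higher, 5 lower and a median of 0.53. Tal1 rose by 3.17 (SE 0.33), Nfe2 by 3.17 (SE 0.38), Lyl1 by 3.07 (SE 0.43), Klf1 by 2.72 (SE 0.32) and the erythropoietin receptor gene Epor by 2.82 (SE 0.32). The 5 lower were Kit, the stem cell factor receptor gene, at -3.10 (SE 0.75), Bcl11a at -3.01 (SE 0.46), Gata2 at -2.96 (SE 0.96), Myb at -2.72 (SE 0.68) and Sox6 at -2.55 (SE 0.95). Kit, Gata2 and Myb are genes of early progenitors, and Bcl11a and Sox6 encode repressors of embryonic globin genes. Blood progenitor-like cells sit among the other cells. Without them and the remaining erythroid-like cell, 3 regulators were lower, Bcl11a, Gata2 and Sox6, and 11 were higher. Sox6 stood at 1.55 CPM in globin-high sums, so its value rests on few UMIs.

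Of 20 paralogs of the members tested, 1 was higher (5.0%, against 10.7% of all genes) and 3 were lower (10.5% of all genes were), with a median of -1.32 against -0.15 over all genes. The difference between paralogs and members was not tested. Alas1, the housekeeping form of the first enzyme, stood at 5.64 ± 3.40 CPM in globin-high and 20.5 ± 8.44 CPM in other cells (log2 fold change -1.15, SE 0.73, adjusted p 0.265 by edgeR). Slc25a28, mitoferrin 2, stood at 8.73 ± 8.67 against 13.5 ± 2.87 CPM (-0.30, SE 0.80), and its sign changed in 5 of the alternatives tried. Slc4a2, an anion exchanger of other tissues, stood at 7.95 ± 3.04 against 16.8 ± 9.74 CPM (-0.11, SE 0.72). The lower ones were Mme, the neprilysin gene related to Kel, at -3.27 (SE 1.17, 0.544 against 11.5 CPM, so few UMIs), Mgst1 at -2.52 (SE 0.94) and Slc4a7 at -1.64 (SE 0.38). The higher one was Acp1, a cytosolic phosphatase of another family than Acp5, at 2.0 (SE 0.29), while the lysosomal Acp2 stood at -1.48 (SE 0.71, adjusted p 0.13 by edgeR).

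**Figure D5:**
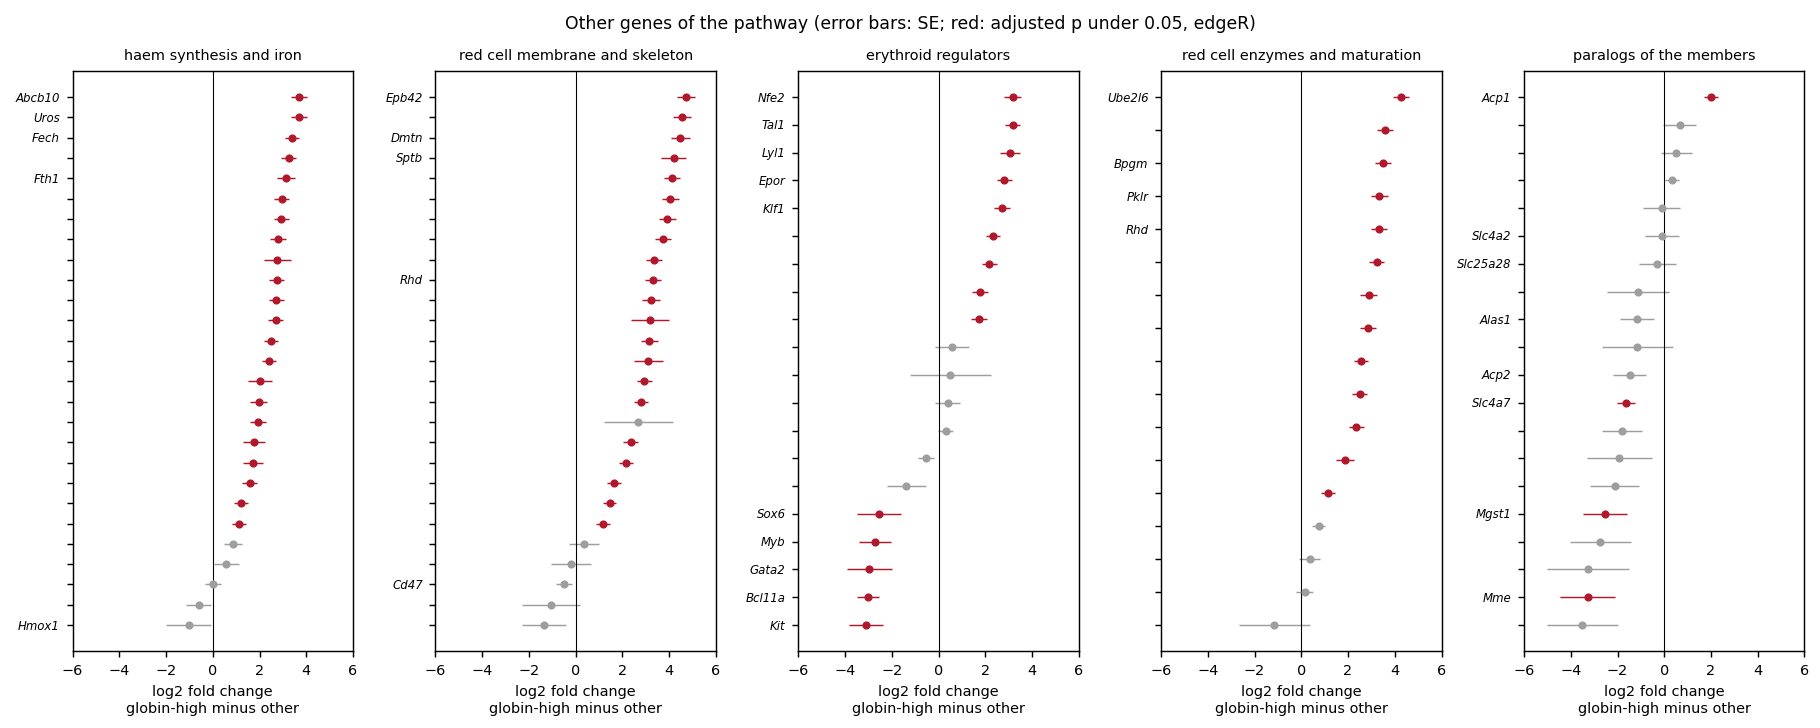
Log2 fold change, globin-high minus other cells, of the genes in 5 lists (x axis), with bars for the standard error, names for some of the genes described in the text and red points for an adjusted p under 0.05 by edgeR. Haem synthesis, membrane and enzyme genes lie mostly right of 0, with 22, 21 and 13 red points there, the regulators fall on both sides and the paralogs hold 1 red point on the right and 3 on the left.

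The count of calls in this comparison moved with the batches and with the scaling. In all, 2398 of 11328 genes passed, 1211 higher and 1187 lower (3818, or 33.7%, had an unadjusted p under 0.05), and 951 passed without E9.5 replicate 2, of which 932 were among the 2398. In the lists, leaving out E9.5 replicate 2 gave 20 haem synthesis, 19 membrane, 12 enzyme and 9 regulator genes higher, with Bcl11a the only regulator lower. Without E10 replicate 3, 1492 genes passed, and 20 haem synthesis, 21 membrane, 13 enzyme and 9 regulator genes were higher and 3 regulators lower. Scaled to the total of each sum, 9.54% of the called genes were higher against 50.5% with TMM, and 16 haem synthesis, 18 membrane, 11 enzyme and 7 regulator genes were higher. Of the paralogs, 1 was higher and 7 were lower with that scaling. The counting's strand setting is not given in the sources used here, so reads of overlapping genes cannot be told apart. In the GENCODE M21 annotation this touches Alas2 with Apex2 and Mir3620, Kel with Gm37527, Acp5 with 6530413G14Rik, and Slc25a37 with 4 predicted genes.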

How the data were processed

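The authors deposited counts of unique molecular identifiers (UMIs) per gene and well. Reads were handled with CASAVA 1.8, TopHat2 2.0.12 and HTSeq on mm10, per the submitters' processing notes. The role of each and the strand setting are not given in the sources used here. Spike-in entries (95) were dropped, and cells with at least 1000 genes and 30000 UMIs were kept, 26 to 87 per batch. Batches were matched to columns by the batch number in the names. Sums of UMIs over a batch, or over a class within it (at least 5 cells), were tested with edgeR 4.0.16 in R 4.3.3 (quasi-likelihood, TMM, Benjamini-Hochberg, adjusted p under 0.05), with the batch as a block where classes were compared, since both classes come from the same batch. DESeq2 1.42.0 was an alternative. The tests were tested on simulated data, where 4-fold changes in 200 genes were recovered for 97.0% (stages, all kept cells), 78.5% (stages, globin-high cells) and 99.5% (classes). Between stages in all kept cells, the members' log2 fold changes had standard errors of 0.94 to 1.63. Recovery at that spread was not tested, so the 97.0% does not describe how well changes in the members could be found. All 3 simulations gave every gene the same spread and no difference between batches. The 78.5% and 99.5% likewise hold for that setting only. Clusters came from scanpy 1.11.5 and leidenalg 0.10.2 (2000 variable genes, 20 components, 15 neighbours, resolution 1, seed 0), with members, listed red cell genes, globins, ribosomal genes and Xist with Y-linked genes left out. Names were given where at least 3 markers of a type had a median of at least 20 CPM and stood 2-fold above the rest. A cluster stayed unnamed where another type had more markers among its leading genes. No doublet caller was run, because cells were picked singly. The 9 members and all gene lists were chosen with earlier results of these data known. Named list genes are the 5 with the largest change in each direction among those called, and any tested relative of a member. Hmox1 and Cd47 were chosen after their values were seen. Some genes that these rules select are not reported here, but they stay in the counts. For the members' likeness the first 3 genes were taken, under the same limit. Thinning to 30000 UMIs was random with a fixed seed. Some wells repeated the counts of another batch's well, 23 at a limit of 5000 UMIs and 0 among the kept cells.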

Additional observations from a re-analysis of the deposited data

Results flagged for a closer look

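Wells that held UMIs but fell below the limits for a cell also carried the members. The 75 wells held 505523 UMIs, of which 773 were of the 9 members, found in 65 wells, and haemoglobin genes took 10.96% of the whole. The members' summed level was 1529 CPM over these wells, from 88.1 CPM in E10 replicate 1 to 2381 CPM in E10 replicate 2. These wells entered no comparison of stages or classes, and whether they held damaged cells, no cell or free RNA was not tested.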

How the results depend on the processing

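Leaving out 1 batch at a time moved the E10 minus E9.5 log2 fold change over all kept cells across 0 for every member: Alas2 -0.98 to 1.63, Slc4a1 -0.24 to 2.19, Slc25a37 -0.38 to 2.42, Kel -0.62 to 3.22, Hemgn -0.67 to 1.74, Trim10 -0.66 to 1.8, Car2 -1.03 to 1.64, Mgst3 -1.38 to 0.60 and Acp5 -1.18 to 1.24. Trim10 also turned at 100000 UMIs per cell (-0.042) and Car2 with thinned cells (0.066), and DESeq2 called 84 genes. The share of globin-high cells differed by -2.40 to 15.1 points without 1 batch and by 3.38 to 17.0 points under the other settings tried. Within globin-high cells the count of 30 genes became 5 (DESeq2), 17 (thinned), 14 (globin-high from 5%), 1 (batches with at least 1 cell) and 73 (scaled to totals, with 3 list genes). There, Slc4a1 turned to -0.018, -0.37 and -0.11 under the first 3, Hemgn to -0.0023 (DESeq2), -0.38 (5%) and -0.49 (1 cell), and Slc25a37 to 0.54 and Trim10 to 0.29 (1 cell). Between classes, 1485 genes passed with thinned cells (687 higher), 337 from 5% haemoglobin (220 higher, 117 lower) and 951 to 2291 without 1 batch (463 to 1040 higher, 488 to 1251 lower). Without the batch as a replicate block, 1317 passed (710 higher, 607 lower). Scaled to totals, 297 were higher and 2815 lower. From 5% haemoglobin, 14 haem synthesis genes were higher. Lower regulators numbered 1 (thinned), 2 (5%), 3 (1 cell), 3 (no blood clusters), 2 (no replicate block) and 1 to 5 (without 1 batch). Lower paralogs numbered 1 (100000 UMIs), 1 (thinned), 0 (5%), 7 (totals) and 1 to 2 (without 1 batch), and 1 membrane gene was lower (totals). Slc25a28 turned to 0.020 (thinned), 0.42 (5%), 0.21 (1 cell), 0.18 (no replicate block) and lay at -1.11 to 0.46 without 1 batch, and Slc4a2 at -0.54 to 0.21. The causes were not tested. Scaling to totals, the limit to erythroid-like globin-high cells and the removal of blood clusters were chosen after seeing the data. A limit of 20% haemoglobin left too few batches, as did leaving out a batch within globin-high cells, and no paired analysis of stages was possible because the batch numbers name separate batches. Sox6 and Mme rest on few UMIs in globin-high cells.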
